A study of Mus musculus with 34 samples.

Results

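The genes of Polycomb repressive complex 2 (PRC2), which methylates lysine 27 of histone H3 (H3K27), and of an opposing demethylase were followed in brown preadipocytes. The 10 genes were chosen by name, with earlier results of these data known, and were 10 of the 23109 genes in the expression files. They comprised the catalytic subunits *Ezh2* and *Ezh1*, the core subunits *Eed*, *Suz12*, *Rbbp4*, and *Rbbp7*, the accessory subunits *Jarid2*, *Mtf2*, and *Phf19*, and the demethylase gene *Kdm6b*. All 10 had reads in every library, so none was lost to a filter. Of these genes, *Jarid2* varied most, with an RPKM 15.4-fold higher in the highest library than in the lowest. It was induced from D0 to D2 of adipogenesis in both control populations, 2.31-fold in cells expressing H3.3K36M, and its D2 level was 1.07-fold the D0 level after *Nsd2* knockdown.

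PRC2 keeps developmental genes silent by methylating H3K27. EZH2 and its relative EZH1 are alternative enzymes of the complex, EZH2 being typical of dividing cells and EZH1 of resting or differentiated ones, while EED, SUZ12, and RBBP4 or RBBP7 complete the core. MTF2 and PHF19 belong to one form of PRC2 and JARID2 to another, each guiding the complex to its sites, and KDM6B removes the methyl groups. Methylation of H3K36, which NSD2 adds and the K36M mutant histone depletes, hinders PRC2 on the same histone tail, and PRC2 in preadipocytes is known for repressing Wnt genes.

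All 14 libraries came from preadipocytes of the interscapular brown fat of newborn pups on the C57BL/6J strain, immortalized with SV40T, a viral antigen that inactivates the RB proteins and so keeps cells dividing. The labels call the cells GR-flox/flox and their protocol adds that a retroviral Vec or Cre made WT or GR KO cells, without saying which a library is, whereas the paper describes preadipocytes of WT mice. In the first experiment, cells carried retroviral FLAG-tagged H3.3, either wild type (WT) or K36M, and were collected at D0, D2, and D7 after induction with insulin, T3, IBMX, dexamethasone, and indomethacin. In the second, WT and K36M cells also carried retroviral PPARγ and received DMSO, labelled 0 h, or rosiglitazone (Rosi), a PPARγ ligand, labelled 24 h. The study's text gives 24 h for DMSO as well, and if the labels hold instead, the ligand and the time in culture cannot be told apart. In the third, cells carried a lentiviral control (Ctrl) or *Nsd2* shRNA (Nsd2 KD) and were collected at D0 and D2, and the labels do not say which *Nsd2* shRNA was sequenced. Each condition was 1 population and 1 library. No single comparison of 2 libraries could therefore be tested, and no difference has a replicate check.

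RPKM is the number of reads per kilobase of transcript, scaled to the mapped reads of the library, so levels can be compared between genes as well as between libraries. A shift shared by most genes of a library stays in these values. Whole reads were recovered from the RPKM, and mapped reads ranged from 12213559 to 24365867 per library. Ratios are given on the log2 scale with a 95% Clopper-Pearson interval of the reads, which covers counting error only and compares libraries, not conditions. A gene was called up-regulated or down-regulated when its RPKM differed over 2-fold. *Nsd2*, the targeted gene, had an RPKM of 5.85 at D0 and 7.01 at D2 in Nsd2 KD cells, against 19.9 and 29.0 in Ctrl cells and 16.7 to 30.9 in the 12 libraries without the knockdown. The summed RPKM of 3 leukocyte markers was at most 3.07 in a library, that of 3 endothelial markers at most 0.934, and that of 3 skeletal muscle markers at most 0.308. Of the adipocyte markers, *Fabp4* reached 3249 in WT cells at D2, while *Ucp1* and *Cidea*, which define mature brown adipocytes, were at 0.194 and 0.0973 or below in all 14 libraries. The values are of bulk RNA, in which fewer cells of a type and less RNA per cell cannot be told apart.

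**Figure D1:**
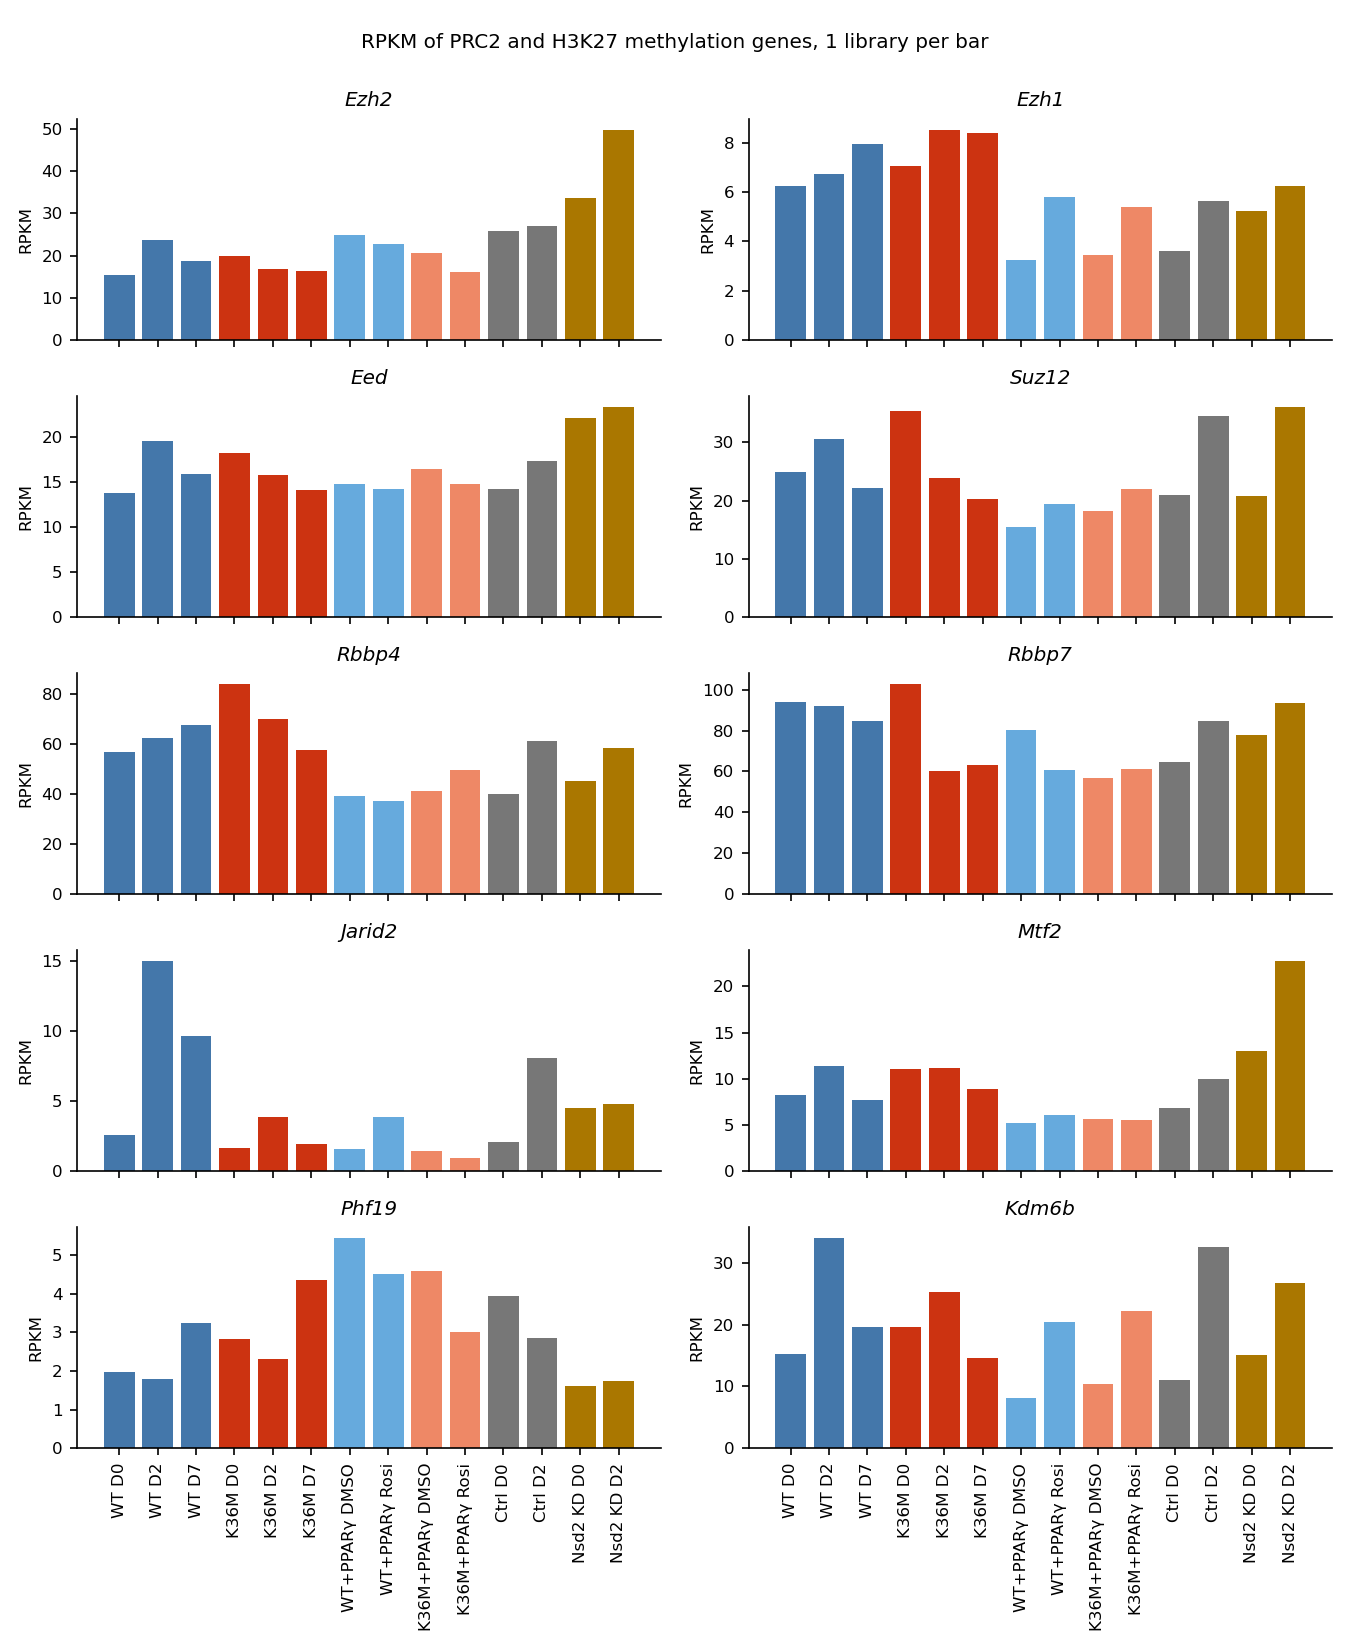
RPKM of each of the 10 genes in the 14 libraries (1 bar per library, linear axes starting at 0 and scaled to each gene; blue WT, red K36M, light blue and orange the same cells with PPARγ, grey Ctrl, brown Nsd2 KD). *Jarid2* is highest in WT cells at D2 (15.0) and lowest in K36M cells with PPARγ and Rosi (0.975), and *Ezh2*, *Eed*, *Suz12*, and *Mtf2* are highest in Nsd2 KD cells at D2.

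From D0 to D2, the members over 2-fold higher were *Jarid2* and *Kdm6b* in WT cells, the same pair in Ctrl cells, *Jarid2* alone in K36M cells, and none in Nsd2 KD cells. No member was over 2-fold lower in any of the 4 populations. Among all genes above 0 in either library, 13.6% were over 2-fold higher in WT, 17.3% in Ctrl, 16.5% in K36M, and 16.9% in Nsd2 KD cells. Once genes below an RPKM of 1 in both libraries were set aside, which kept all 10 members, these shares were 9.38%, 11.3%, 10.2%, and 11.8%. With 2, 2, 1, and 0 of 10 called, the number of members was near the background. The genes over 2-fold lower were 25.2%, 23.4%, 19.6%, and 24.5% of those above 0 in the same order, and 17.3%, 16.1%, 11.2%, and 16.8% of those at an RPKM of 1 or more. The median log2 ratio of the members was 0.39 in WT, 0.58 in Ctrl, 0.31 in Nsd2 KD, and -0.23 in K36M cells, beside -0.01, 0.07, 0.04, and -0.07 over all genes at an RPKM of 1 or more. In K36M cells 4 of the 10 ratios were above 0, compared with 8 in WT, 9 in Ctrl, and 10 in Nsd2 KD cells.

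**Figure D2:**
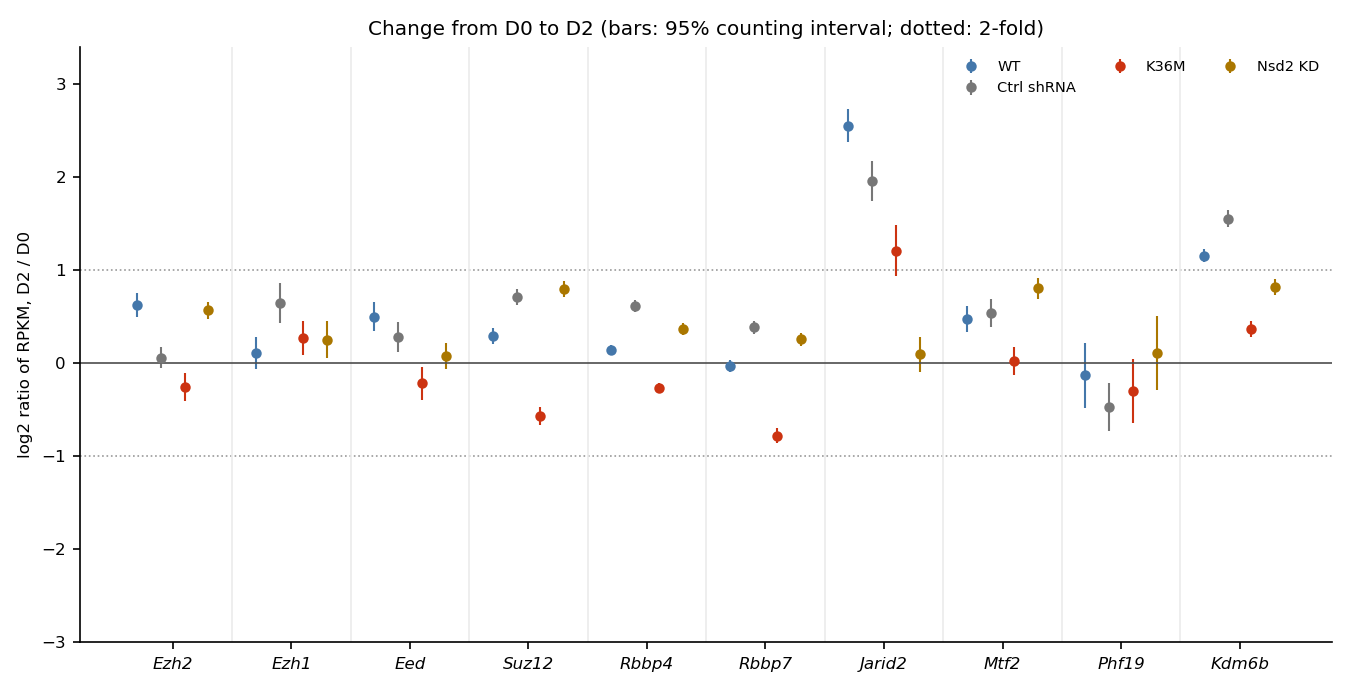
Log2 ratio of RPKM at D2 to D0 for each gene in WT (blue), Ctrl (grey), K36M (red), and Nsd2 KD (brown) cells; vertical bars are 95% counting intervals and dotted lines mark 2-fold. *Jarid2* is at 2.55 in WT, 1.96 in Ctrl, 1.21 in K36M, and 0.10 in Nsd2 KD cells, and *Ezh2*, *Eed*, *Suz12*, *Rbbp4*, and *Rbbp7* are below 0 only in K36M cells, except that *Rbbp7* is also at -0.03 in WT cells.

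*Ezh2* (NM_001146689, chr6:47480273-47545340, minus strand, mm9) encodes the main methyltransferase of dividing cells. At D0, D2, and D7 its RPKM was 15.4, 23.8, and 18.7 in the WT course and 20.0, 16.8, and 16.4 in the K36M course. WT cells with PPARγ had 24.8 with DMSO and 22.7 with Rosi, and K36M cells with PPARγ had 20.6 and 16.2. In the *Nsd2* experiment it was 25.8 and 26.9 at D0 and D2 with the Ctrl shRNA and 33.6 and 49.8 with the *Nsd2* shRNA. The highest values were thus those of the knockdown, and no comparison passed 2-fold. The largest *Ezh2* difference was Nsd2 KD to Ctrl at D2, a log2 ratio of 0.89 (0.79 to 0.98), followed by Ctrl to WT at D0, 0.74 (0.62 to 0.87), which sets 2 control populations against each other. The log2 ratio of K36M to WT was 0.38 (0.24 to 0.51) at D0, -0.50 (-0.65 to -0.36) at D2, and -0.19 (-0.36 to -0.02) at D7. From D0 to D2 *Ezh2* had a log2 ratio of 0.63 in WT and -0.25 in K36M cells, a difference of -0.88 with a counting interval from -1.07 to -0.68. The change in Ctrl cells was 0.06, which lay -0.56 from that of WT cells, so the control populations themselves differed by much of that amount.

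*Ezh1* (NM_007970, chr11:101052429-101087777, minus strand) encodes the alternative enzyme. Its RPKM was 6.27, 6.75, and 7.95 at D0, D2, and D7 of the WT course, beside 7.08, 8.54, and 8.41 for K36M. WT cells with PPARγ had 3.25 with DMSO and 5.81 with Rosi, beside 3.45 and 5.41 for K36M. It was 3.61 and 5.65 at D0 and D2 in Ctrl cells and 5.25 and 6.26 in Nsd2 KD cells. *Ezh1* was higher in the later library of each pair from D0 to D2 and with Rosi, by a log2 ratio of 0.11 (-0.06 to 0.28) in WT cells at D2 to 0.84 (0.62 to 1.06) in WT cells with Rosi, and never by 2-fold. Since *Ezh2* was level or lower with Rosi, the ratio of *Ezh2* to *Ezh1* RPKM within a library went from 7.64 to 3.91 in WT and from 5.95 to 2.99 in K36M cells with PPARγ. It was lowest in K36M cells at D7 (1.95) and highest in Nsd2 KD cells at D2 (7.96), and it was 2.46 in WT but 7.15 in Ctrl preadipocytes at D0.

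**Figure D3:**
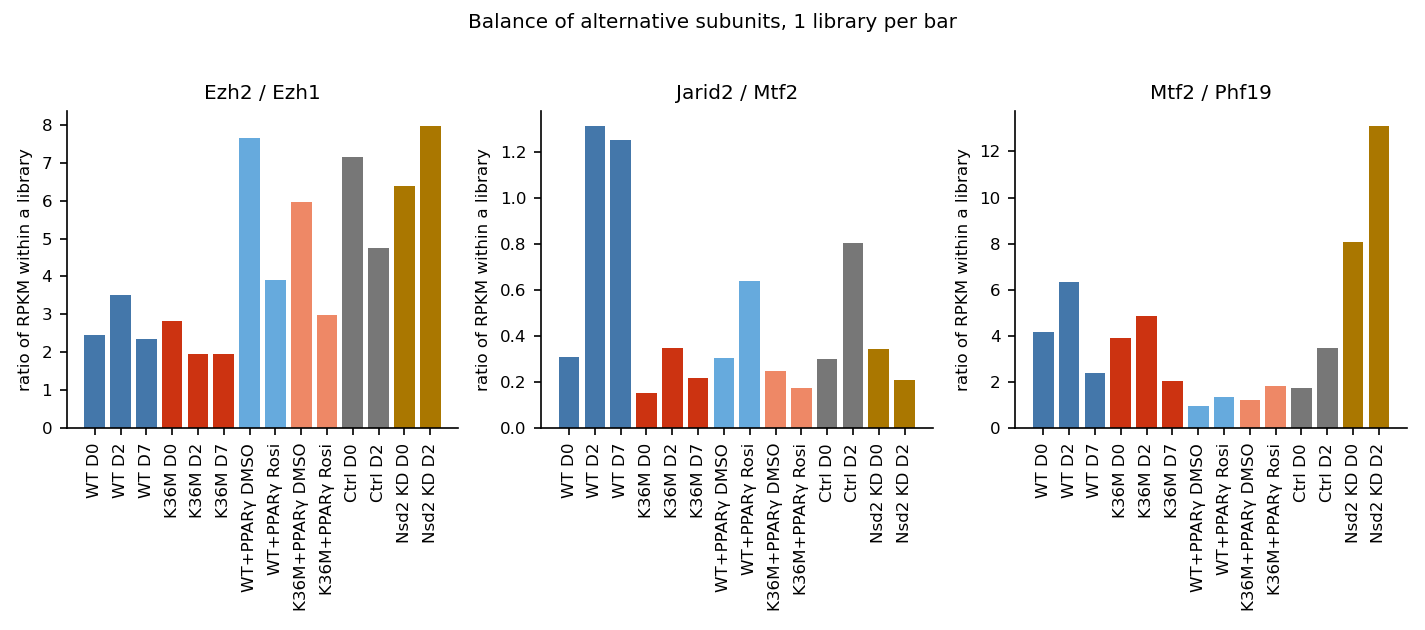
Ratio of RPKM between alternative subunits within each of the 14 libraries (bars from 0, linear axes): *Ezh2* to *Ezh1*, *Jarid2* to *Mtf2*, and *Mtf2* to *Phf19*. *Jarid2* exceeds *Mtf2* in 2 libraries, WT at D2 (1.31) and WT at D7 (1.25), and *Mtf2* to *Phf19* is highest in Nsd2 KD cells (8.09 and 13.1).

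The level of the core subunits was compared next. *Rbbp7* (NM_009031, chrX:159198334-159217024, plus strand) and *Rbbp4* (NM_009030, chr4:128984344-129012614, minus strand) encode histone-binding proteins that other chromatin complexes also use. They ranked first and second of the 10 members by RPKM in 13 libraries and in the reverse order in K36M cells at D2. *Rbbp7* ranged from 56.8 in K36M cells with PPARγ and DMSO to 103 in K36M cells at D0. *Rbbp4* ranged from 37.2 in WT cells with PPARγ and Rosi to 84.2 in K36M cells at D0. K36M cells went from the highest levels of both at D0 to 60.0 (*Rbbp7*) and 70.2 (*Rbbp4*) at D2, whereas WT cells were at 93.8 and 92.0 for *Rbbp7* and 56.8 and 62.6 for *Rbbp4*. The D2 to D0 log2 ratio of *Rbbp7* was -0.78 (-0.86 to -0.70) in K36M and -0.03 (-0.09 to 0.03) in WT cells.

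*Eed* (NM_021876, chr7:97103166-97129493, minus strand) encodes the subunit that reads methylated H3K27. Its RPKM was 13.8, 19.5, and 15.9 in WT cells at D0, D2, and D7, 18.2, 15.7, and 14.1 in K36M cells, 14.2 and 17.3 in Ctrl cells, and 22.1 and 23.4 in Nsd2 KD cells. The 4 libraries with PPARγ lay between 14.3 and 16.5. The 2 Nsd2 KD libraries were the highest, with a log2 ratio to Ctrl of 0.64 (0.48 to 0.79) at D0 and 0.43 (0.29 to 0.58) at D2. *Eed* was the steadiest member, with a 1.69-fold range.

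*Suz12* (NM_001163018, chr11:79806608-79847625, plus strand) encodes the subunit that holds the complex together. Its RPKM was 25.0, 30.6, and 22.1 in WT cells, beside 35.4, 23.9, and 20.4 for K36M. It was 21.0 and 34.5 in Ctrl and 20.8 and 36.1 in Nsd2 KD cells, so the lentiviral populations lay close together, with log2 ratios of Nsd2 KD to Ctrl of -0.02 (-0.12 to 0.08) at D0 and 0.07 (-0.01 to 0.14) at D2. From D0 to D2 its log2 ratio was 0.29 in WT, 0.71 in Ctrl, and 0.80 in Nsd2 KD cells, and -0.57 (-0.66 to -0.47) in K36M cells. With PPARγ the values were 15.5 and 19.5 in WT and 18.3 and 22.0 in K36M cells with DMSO and Rosi, log2 ratios of 0.33 and 0.27.

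Among the core and catalytic genes, *Ezh2*, *Eed*, *Suz12*, *Rbbp4*, and *Rbbp7* were all higher in K36M than in WT cells at D0 and, except for *Rbbp4*, lower at D2. *Ezh1* was higher at both, with log2 ratios of 0.18 and 0.34. The proliferation genes were higher at D0 too, all 15 of 15 in K36M compared with WT cells and 3 of them over 2-fold, with a summed RPKM of 885 against 528. Over all genes, 14.8% of those above 0 and 5.02% of those at an RPKM of 1 or more were over 2-fold higher. The sum of the proliferation genes at D2 was 774 in K36M and 676 in WT cells, and 13 of 15 were higher in K36M cells. The part of proliferation in the PRC2 ratios was not tested.

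*Jarid2* (NM_001205044, chr13:44824843-45017012, plus strand) encodes an accessory subunit that helps bring PRC2 to its targets and has lost the demethylase activity of its family. The WT course began at an RPKM of 2.56 at D0, reached 15.0 at D2, and stood at 9.67 at D7. In Ctrl cells it was 2.07 at D0 and 8.04 at D2. The log2 ratio of D2 to D0 was 2.55 (2.38 to 2.73), or 5.87-fold, in WT cells and 1.96 (1.75 to 2.17), or 3.88-fold, in Ctrl cells. The K36M course ran from 1.69 at D0 through 3.90 at D2 to 1.96 at D7, so the D2 level was 2.31-fold that at D0, a log2 ratio of 1.21 (0.94 to 1.48), which was 0.87 and short of 2-fold with a pseudocount of 1 added to the RPKM. In Nsd2 KD cells it was 4.49 at D0 and 4.80 at D2, a log2 ratio of 0.10 (-0.09 to 0.29). The knockdown cells began above and ended below the Ctrl cells.

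The change of *Jarid2* from D0 to D2 was smaller in K36M than in WT cells, with a difference of log2 ratios of -1.35 (-1.66 to -1.03), and in Nsd2 KD compared with Ctrl cells the difference was -1.86 (-2.14 to -1.58). The change in Ctrl cells differed from that in WT cells by -0.60 (-0.87 to -0.32). At D2 *Jarid2* was 3.85-fold lower with K36M than with WT histone, with a log2 ratio of -1.94 (-2.13 to -1.76). It was the only member over 2-fold lower, beside 9.90% of genes above 0 and 4.37% of those at an RPKM of 1 or more, and none was higher, beside 22.2% and 11.2%. At D7 it was again the only one, 4.92-fold lower with a log2 ratio of -2.30 (-2.57 to -2.03), beside 13.2% and 8.46% of genes, with none higher, beside 19.7% and 11.7%. At D0 the log2 ratio was -0.60 (-0.87 to -0.33) and no member was called in either direction, beside 14.8% of genes over 2-fold higher and 12.0% lower. Of genes at an RPKM of 1 or more, these shares were 5.02% and 6.36%. In Nsd2 KD compared with Ctrl cells *Jarid2* was 2.17-fold higher at D0, a log2 ratio of 1.12 (0.89 to 1.35) that was 0.84 with a pseudocount of 1, and at D2 the log2 ratio was -0.74 (-0.91 to -0.58), short of 2-fold. Between the controls themselves, Ctrl to WT at D2, *Jarid2* had a log2 ratio of -0.90 (-1.02 to -0.78). The D2 difference after *Nsd2* knockdown was no larger than that between control populations, whereas the K36M differences at D2 and D7 were larger. The ratio between controls shares its WT library with the K36M ratio at D2 and its Ctrl library with the knockdown ratio. In that WT library *Jarid2* had an RPKM of 15.0, against 8.04 in Ctrl and 3.90 in K36M cells at D2. How far the K36M difference at D2 exceeds the control spread therefore depends on the control used. The D7 difference was read against a D2 ratio, since no second control population was available at D7.

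In WT cells with ectopic PPARγ, *Jarid2* had an RPKM of 1.60 with DMSO and 3.87 with Rosi, and in the K36M counterparts 1.41 and 0.975. It was 2.42-fold higher with Rosi in WT cells, a log2 ratio of 1.28 (1.02 to 1.53) that was 0.91 with a pseudocount of 1, while the ratio in K36M cells was -0.53 (-0.95 to -0.13). The difference of these changes was -1.81 (-2.28 to -1.34). Between the K36M and WT populations with PPARγ, the log2 ratio was -0.18 (-0.47 to 0.11) with DMSO and -1.99 (-2.38 to -1.62) with Rosi, where *Jarid2* was the only member over 2-fold lower, beside 12.6% of genes above 0 and 12.1% of those at an RPKM of 1 or more, and none was higher, beside 28.4% and 7.02%. With DMSO no member was called, beside 23.9% of genes over 2-fold higher and 8.31% lower. Of genes at an RPKM of 1 or more, these shares were 5.09% and 3.11%. The 70 reads behind the lowest *Jarid2* value are the fewest of any member in any library. The other deposited *Jarid2* transcripts, of which there were 3 in all, stayed within 0.09 of the one used on the log2 scale in every library, and since they share reads they do not give separate isoform levels.

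**Figure D4:**
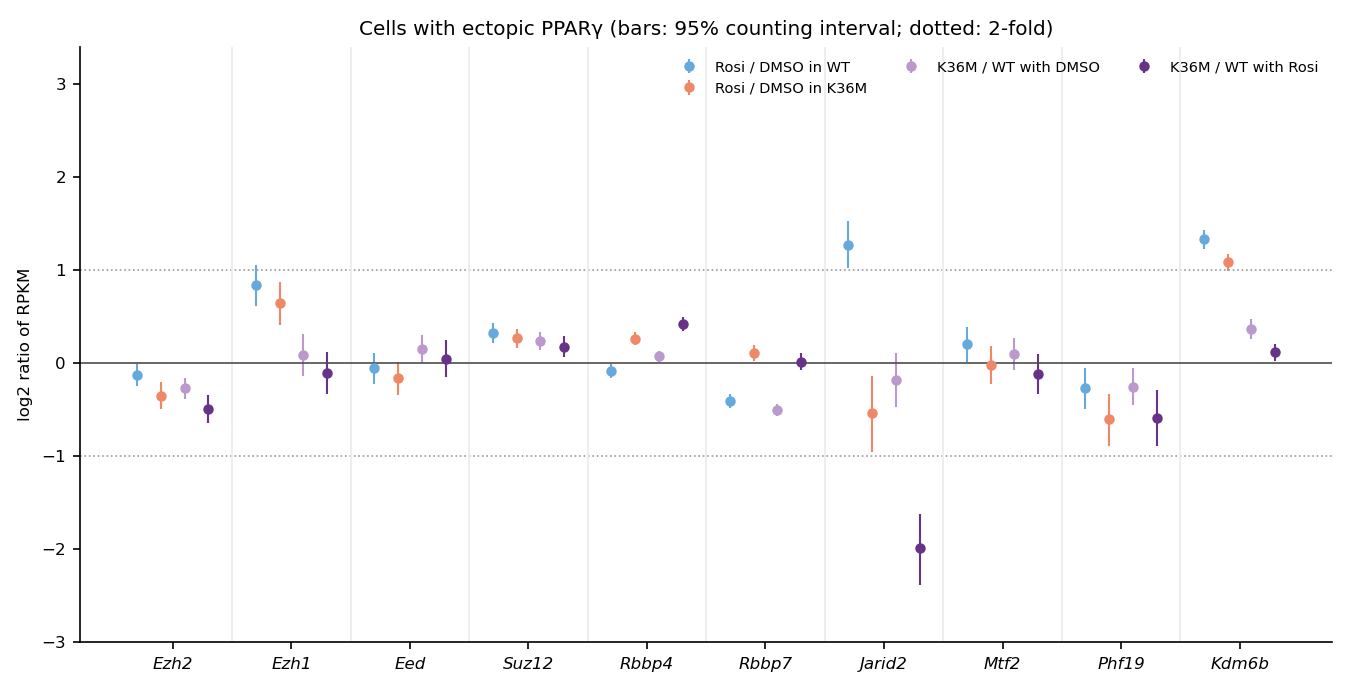
Log2 ratios of RPKM in cells with ectopic PPARγ: Rosi to DMSO in WT (light blue) and K36M (orange) cells and K36M to WT with DMSO (lilac) and Rosi (purple); vertical bars are 95% counting intervals and dotted lines mark 2-fold. *Kdm6b* is over 2-fold higher with Rosi in both (1.33 and 1.08), and *Jarid2* is at 1.28 in WT and -0.53 in K36M cells.

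The highest *Jarid2* levels, those of WT cells at D2 and D7 and of Ctrl cells at D2, came with high adipocyte genes, but other libraries departed from this. The summed RPKM of 7 adipocyte markers was 59.6, 3567, and 3408 in WT cells at D0, D2, and D7, 37.0, 1592, and 219 in K36M cells, 42.2 and 1402 in Ctrl cells, and 33.9 and 57.1 in Nsd2 KD cells. WT cells with PPARγ had 213 with DMSO and 3029 with Rosi, and K36M cells with PPARγ 150 and 1219. *Fabp4*, a fatty acid binding protein gene, made up most of the high sums, with 1148 of the 1219. Also in that library *Cebpa*, an adipogenic transcription factor gene, was at 10.3, *Adipoq*, an adipokine gene, at 5.64, and *Plin1*, a lipid droplet protein gene, at 12.1. In WT cells with Rosi these were at 187, 132, and 148, and all 4 genes were over 2-fold lower in the K36M library. The orders were not the same: the K36M library with Rosi had the lowest *Jarid2* level of all 14 beside a *Fabp4* level above that of K36M cells at D7, 143. The Nsd2 KD libraries had *Jarid2* levels of 4.49 at D0, beside the lowest sum, 33.9, and 4.80 at D2, beside 57.1. Both levels were above the 3.87 of WT cells with PPARγ and Rosi, where the sum was 3029. The summed RPKM of 5 preadipocyte markers went from 328 at D0 to 56.0 at D2 with WT histone. After *Nsd2* knockdown it went from 226 to 36.4. The K36M course had 134, 131, and, at D7, 630, where the WT course had 290. These sums hide markers that moved apart. From D0 to D2 with K36M, *Ly6a* (60.5 to 86.3) and *Pdgfra* (8.30 to 11.2) rose. *Pdgfrb* (41.0 to 14.5), *Dlk1*, and *Cd34* fell. *Dlk1* made up 171 of the 226 at D0 after knockdown. Compared with Ctrl cells, *Dlk1* and *Cd34* were over 2-fold higher there, and *Pdgfra*, *Pdgfrb*, and *Ly6a* over 2-fold lower. The part of the cell state in the *Jarid2* levels was not tested.

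*Mtf2* (NM_001253879, chr5:108494693-108538023, plus strand) encodes a Polycomb-like accessory subunit that binds unmethylated CpG DNA. Its RPKM was 8.20, 11.4, and 7.72 for WT, 11.0, 11.2, and 8.89 for K36M, and 6.86 and 9.96 for Ctrl cells. The 4 libraries with PPARγ lay between 5.24 and 6.04. In Nsd2 KD cells it was 13.0 at D0 and 22.8 at D2, the latter the highest of the 14 libraries. The log2 ratio of Nsd2 KD to Ctrl was 0.92 (0.78 to 1.07) at D0 and 1.19 (1.07 to 1.31) at D2, where *Mtf2* was the only member over 2-fold higher, beside 12.0% of genes above 0 and 4.88% of those at an RPKM of 1 or more, and none was lower, beside 18.5% and 9.57%. Both were larger than the log2 ratio of Ctrl to WT, -0.26 at D0 and -0.20 at D2. The change from D0 to D2 itself was 0.48 in WT, 0.54 in Ctrl, 0.81 in Nsd2 KD, and 0.03 in K36M cells.

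*Phf19* (NM_028716, chr2:34749277-34769546, minus strand) encodes another Polycomb-like subunit. It had 105 to 444 reads and an RPKM of 1.97, 1.80, and 3.25 in the WT course, beside 2.83, 2.30, and 4.35 in the K36M course. It was 5.45 and 4.52 in WT and 4.58 and 3.02 in K36M cells with PPARγ. In Ctrl cells it was 3.95 and 2.85 and in Nsd2 KD cells 1.61 and 1.74, the lowest of the 14 libraries. At D0 *Phf19* was 2.45-fold lower in Nsd2 KD than in Ctrl cells, with a log2 ratio of -1.29 (-1.63 to -0.97) that was -0.92 with a pseudocount of 1, and at D2 the ratio was -0.71 (-1.05 to -0.38). At D0 *Jarid2* was thus the only member called higher and *Phf19* the only one lower, beside 13.5% of genes over 2-fold higher and 18.1% lower. Of genes at an RPKM of 1 or more, these shares were 6.61% and 10.8%. *Phf19* also separated the control populations, with a log2 ratio of Ctrl to WT of 1.00 (0.72 to 1.29) at D0, the only call among the members in that comparison, beside 12.0% of genes higher and 23.0% lower, and 0.66 (0.34 to 0.99) at D2, where no member was called, beside 12.2% higher and 15.6% lower. Of genes at an RPKM of 1 or more, these shares were 7.10% and 15.1% at D0 and 4.82% and 6.42% at D2. Set against WT cells at D0, the Nsd2 KD value of 1.61 lay near 1.97. From D2 to D7 *Phf19* had log2 ratios of 0.85 (0.51 to 1.19) in WT and 0.92 (0.57 to 1.27) in K36M cells, while *Mtf2* had -0.57 and -0.33.

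**Figure D5:**
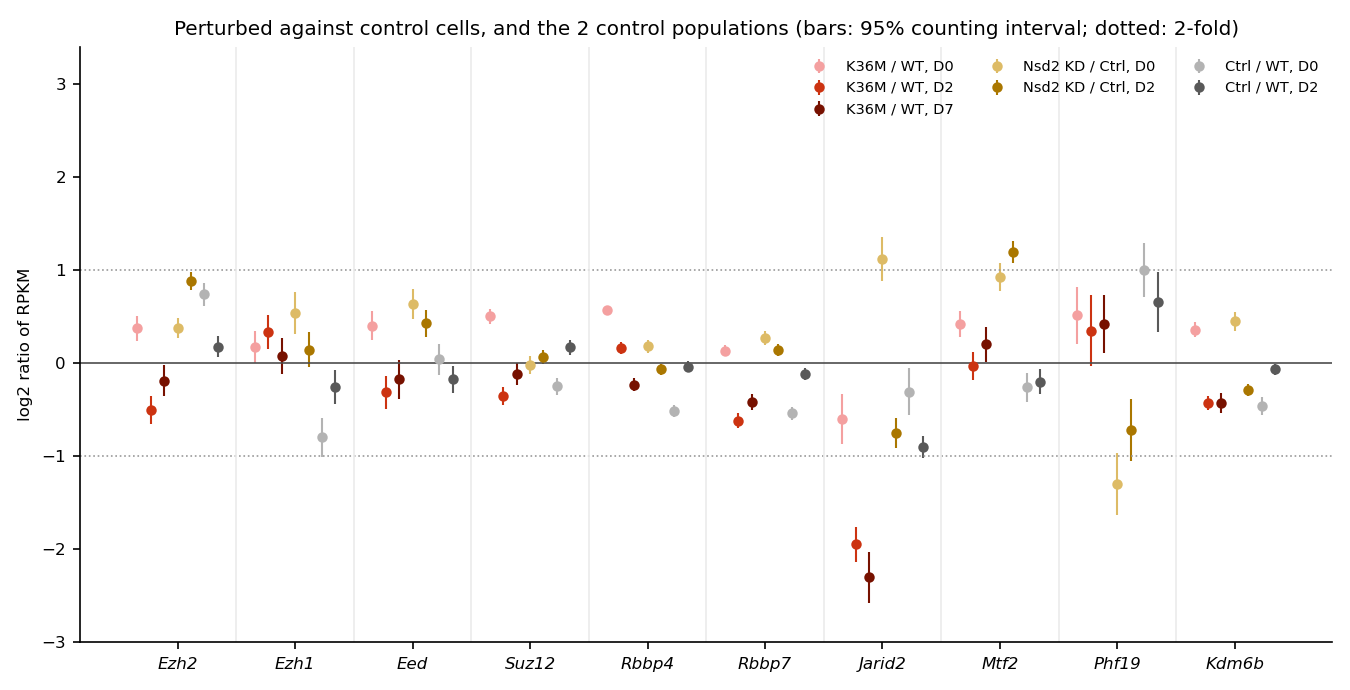
Log2 ratios of RPKM of K36M to WT at D0, D2, and D7 (light to dark red), of Nsd2 KD to Ctrl at D0 and D2 (light and dark brown), and of Ctrl to WT at D0 and D2 (light and dark grey); vertical bars are 95% counting intervals and dotted lines mark 2-fold. *Jarid2* lies at -1.94 and -2.30 in K36M cells at D2 and D7, and *Mtf2* at 0.92 and 1.19 in Nsd2 KD cells.

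*Kdm6b* (NM_001017426, chr11:69212010-69227177, minus strand) encodes the demethylase that removes methyl groups from H3K27. Its RPKM was 15.2, 34.0, and 19.7 in WT cells at D0, D2, and D7, and 11.1 and 32.6 in Ctrl cells at D0 and D2. *Kdm6b* was up-regulated 2.23-fold in WT and 2.94-fold in Ctrl cells from D0 to D2. In K36M cells it was 19.6, 25.3, and 14.7, and in Nsd2 KD cells 15.2 and 26.7, log2 ratios from D0 to D2 of 0.37 (0.29 to 0.45) and 0.82 (0.73 to 0.90). Both perturbed populations began above their control and ended below it, with log2 ratios of K36M to WT of 0.36 at D0 and -0.43 at D2, and of Nsd2 KD to Ctrl of 0.45 and -0.29. The difference in change was -0.79 (-0.90 to -0.68) for K36M and -0.74 (-0.86 to -0.62) for Nsd2 KD cells, while the change in Ctrl cells exceeded that in WT cells by 0.40 (0.28 to 0.51). With Rosi, *Kdm6b* went from 8.10 to 20.4 in WT and from 10.5 to 22.2 in K36M cells with PPARγ. It was up-regulated 2.52-fold and 2.12-fold, so with the ligand it was called in both, unlike *Jarid2*. The called members were 2 of 10 in WT cells and 1 of 10 in K36M cells, beside 17.0% and 18.3% of genes over 2-fold higher. None was lower, beside 16.2% and 15.0%. Of genes at an RPKM of 1 or more, 9.96% and 7.90% were higher and 5.05% and 8.85% lower.

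From D2 to D7 no member passed 2-fold in WT or in K36M cells, beside 22.4% and 21.5% of genes over 2-fold higher and 12.2% and 14.9% lower. Of genes at an RPKM of 1 or more, 15.7% and 15.7% were higher and 5.08% and 7.02% lower. The value nearest to the threshold was the *Jarid2* log2 ratio of K36M cells, -0.99 (-1.30 to -0.69), compared with -0.64 (-0.76 to -0.51) in WT cells. *Kdm6b* had -0.79 in both. Across the whole course from D0 to D7, *Jarid2* remained 3.78-fold higher in WT cells, the only member called beside 15.6% of genes higher and 17.4% lower, and in K36M cells its log2 ratio was 0.22 (-0.11 to 0.54) and no member was called, beside 18.6% higher and 16.0% lower. Of genes at an RPKM of 1 or more, these shares were 11.5% and 8.90% in WT and 14.5% and 7.80% in K36M cells.

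The differences were also read against the spread between the control populations, taking for each member the larger of the log2 ratios of Ctrl to WT at D0 and D2 regardless of sign. This spread was 0.17 for *Eed*, 0.25 for *Suz12*, 0.26 for *Mtf2*, 0.46 for *Kdm6b*, 0.51 for *Rbbp4*, 0.54 for *Rbbp7*, 0.74 for *Ezh2*, 0.80 for *Ezh1*, 0.90 for *Jarid2*, and 1.00 for *Phf19*. The median log2 ratio of Ctrl to WT over all genes at an RPKM of 1 or more was -0.24 at D0 and -0.14 at D2. The ratios of *Suz12* (-0.25) and *Mtf2* (-0.26) at D0 lay near that shared shift, so which members exceed the spread depends on the scaling of the libraries. K36M and WT cells differed by more for 4 of 10 members at D0 (*Eed*, *Suz12*, *Rbbp4*, and *Mtf2*), for 4 at D2 (*Eed*, *Suz12*, *Rbbp7*, and *Jarid2*), and for 1 at D7, *Jarid2*. With PPARγ they did so for 0 members with DMSO and for 1 with Rosi, again *Jarid2*. Nsd2 KD and Ctrl cells differed by more for 4 members at D0 (*Eed*, *Jarid2*, *Mtf2*, and *Phf19*) and for 3 at D2 (*Ezh2*, *Eed*, and *Mtf2*). Each ratio behind this spread rests on 1 library per population. At D0 and D2 the spread shares its WT or Ctrl library with the ratios read against it. No second control population was available at D7 or with PPARγ. The same count over all genes was not taken, so these counts have no background to be set against.

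Libraries that match in state were also fitted together across all genes, an analysis chosen after the data were seen. In these additive limma fits of log2(RPKM + 0.1), the residual spread is the departure from one common difference, and the states are not replicate populations. The residual degrees of freedom were 4 for K36M against WT and 3 for D2 against D0. For Rosi against DMSO and for Nsd2 KD against Ctrl there was 1, so their SEs rest mostly on the spread of other genes. The p-values do not stand for replication of any condition. *Jarid2* was lower in K36M than in WT cells in 5 of 5 states, by a mean of -1.36 on the log2 scale (SE 0.33, Benjamini-Hochberg adjusted p = 0.0749 by limma). That misses the threshold of 0.05, and no member was called, beside 2.66% of genes higher and 1.36% lower. *Kdm6b* was higher at D2 than at D0 in 4 of 4 populations, by 0.97 (SE 0.23, adjusted p = 0.0474 by limma), the only member called, beside 3.71% of genes higher and 6.90% lower. *Jarid2* was also higher in 4 of 4, by 1.42 (SE 0.40, adjusted p = 0.0724 by limma). With Rosi *Kdm6b* was higher in 2 of 2 pairs, by 1.20 (SE 0.23, adjusted p = 0.00588 by limma), again alone, beside 6.05% higher and 5.34% lower. *Mtf2* was higher in Nsd2 KD than in Ctrl cells on 2 of 2 days, by 1.05 (SE 0.21, adjusted p = 0.113 by limma), where no member was called, beside 0.0725% higher and 0.226% lower.

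The windows around the transcription starts of the members were taken from RefSeq on GRCm38.p6, which lists 11 of them for 9 members and none matched for *Kdm6b*. Because *Ezh2* and its partners are known targets of E2F, the factor released when RB is inactivated, the windows (250 bases before to 50 after the start) were searched on both strands for the letters TTTCCCGC, TTTGGCGC, TTTGCCGC, and TTTCGCGC. These occurred in 3 members, and in 2.26% of 32851 windows of all genes. The windows of these 3 members are rich in CpG, with 31 in *Ezh2*, 41 in *Suz12*, and 38 in *Phf19* against a median of 7 over all windows, and of the 3837 windows with at least 30 CpG the letters were in 5.06%. The 30 bases around each are shown with the matching letters in capitals, in the direction of transcription.
*Ezh2*, chr6:47595009-47595038, minus strand: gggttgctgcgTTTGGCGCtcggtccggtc
*Suz12*, chr11:79992876-79992905, plus strand: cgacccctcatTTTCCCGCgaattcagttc
*Phf19*, chr2:34914166-34914195, minus strand: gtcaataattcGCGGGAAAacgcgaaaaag
The match begins 219 bases before the start in *Suz12* and 208 before it in *Phf19*, where it reads on the opposite strand, and inside the transcribed bases in *Ezh2*. In Nsd2 KD compared with Ctrl cells at D0, the log2 ratio was 0.38 for *Ezh2*, -1.29 for *Phf19*, and -0.02 for *Suz12*, and in K36M compared with WT cells at D0 it was 0.38, 0.52, and 0.50. The letters TGACGTCA of the cAMP response element, searched because IBMX raises cAMP, were in none of the 11 windows and in 1.79% of all. A match describes letters only and is not a site shown to be bound.

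Of the other genes of the pathway, 7 encode further PRC2 subunits, inhibitors, or H3K27 demethylases. *Aebp2*, the partner of JARID2 in PRC2, had an RPKM of 87.4 at D0 and 69.9 at D2 in Nsd2 KD cells, 36.1 and 45.6 in Ctrl cells, and 31.7 to 58.1 in the 12 libraries without the knockdown. It was over 2-fold higher at D0, with a log2 ratio of 1.28 (1.14 to 1.41), the only 1 of the 7 genes called there. Over all genes, 13.5% of those above 0 and 6.61% of those at an RPKM of 1 or more were over 2-fold higher, so this count was near the background. *Kdm6a*, the other widely expressed H3K27 demethylase gene, ranged from 3.24 to 10.4 and passed 2-fold in none of the comparisons. *Phf1*, the Polycomb-like relative of *Mtf2* and *Phf19*, was at 14.5 in K36M cells at D7 against 5.07 in WT cells, a log2 ratio of 1.52 (1.26 to 1.79), and it was down-regulated from D0 to D2 in Ctrl cells (7.69 to 2.51) and Nsd2 KD cells (10.8 to 2.89). *Ezhip*, an inhibitor of PRC2, was listed at 0 in 11 libraries and at no more than 0.0859 in the others.

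*Epop* and *Lcor*, which encode factors bound to the Polycomb-like form of PRC2, varied more. *Epop* had an RPKM of 8.73 in K36M against 3.25 in WT cells at D0 and 8.07 with DMSO against 2.10 with Rosi in WT cells with PPARγ, and it was called in both. Of genes at an RPKM of 1 or more, 5.02% were over 2-fold higher in the first comparison and 5.05% lower in the second. *Epop* was also over 2-fold higher in Ctrl than in WT cells at D2, 6.26 against 2.58. At D7 it was at 2.60 in K36M and 2.61 in WT cells. *Lcor* in WT cells with PPARγ was at 0.523 with DMSO and 1.504 with Rosi, a log2 ratio of 1.52 (1.04 to 2.02), and at 0.440 and 0.491 in K36M cells with PPARγ.

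PRC1 is the Polycomb complex that ubiquitinates histone H2A, and its CBX subunits read methylated H3K27. Of 22 PRC1 genes, all with an RPKM of at least 1 in one or both of the libraries compared, those over 2-fold higher and lower from D0 to D2 numbered 1 and 4 for WT, 1 and 3 for K36M, 2 and 1 for Ctrl, and 3 and 1 for Nsd2 KD cells. Among all genes at that level, 9.38% were higher and 17.3% lower in WT, 10.2% and 11.2% in K36M, 11.3% and 16.1% in Ctrl, and 11.8% and 16.8% in Nsd2 KD cells, so the PRC1 counts of 4 and 3 lower genes in WT and K36M cells were near the background. The genes down-regulated in WT cells were *Pcgf2*, *Pcgf5*, *Phc1*, and *Scmh1*, which encode PRC1 subunits. The median log2 ratio over the PRC1 genes was -0.17 in WT, -0.09 in K36M, 0.11 in Ctrl, and 0.26 in Nsd2 KD cells.

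Among 6 genes known as Polycomb targets, *Cdkn2a* and *Cdkn2b*, which encode cell cycle inhibitors, carried nearly all of the summed RPKM. The *Cdkn2a* value does not separate its *Ink4a* and *Arf* transcripts, which share exons. At D0, D2, and D7 *Cdkn2a* was at 224, 96.0, and 303 in the WT course and at 192, 205, and 320 in the K36M course. *Cdkn2b* was at 62.9, 17.9, and 74.8 with WT and at 20.8, 55.2, and 68.2 with K36M histone, so WT cells down-regulated it and K36M cells up-regulated it by D2, with log2 ratios of -1.81 (-1.96 to -1.67) and 1.41 (1.26 to 1.56). In Ctrl cells *Cdkn2b* went from 33.0 to 11.9, which was a call, and in Nsd2 KD cells from 23.6 to 13.7, a log2 ratio short of 2-fold. *Cdkn2a* went from 155 to 79.7 in Ctrl and from 227 to 94.2 in Nsd2 KD cells. The Wnt genes of the list were low. *Wnt10b*, which encodes a Wnt ligand that restrains adipogenesis, was at 0.903, 0.0235, and 0.202 in WT cells and at 2.51, 0.466, and 1.36 in the K36M course, the log2 ratio of K36M to WT being 1.48 (0.96 to 2.02) at D0 and 2.75 (1.49 to 4.29) at D7. In Nsd2 KD cells *Wnt10b* was listed at 0 at D0 and 0.0254 at D2, against 0.659 and 0.0668 in Ctrl cells. It was thus lower with the knockdown, unlike with K36M, though these levels were low. *Wnt1*, *Wnt6*, and *Wnt10a* did not exceed 0.626 in any library.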

How the data were processed

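RNA-Seq of 14 libraries was used, 1 per condition. The authors deposited RPKM for 29082 RefSeq transcripts per library, that is, reads divided by transcript length and by mapped reads. Reads were processed with CASAVA 1.8.2 and mm9 per the submitters' processing notes, and the tool for alignment and counting of RNA-Seq reads is not given in the sources used here. The ChIP-Seq experiments were not analysed here.

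A symbol was found for 28432 transcripts (97.8%) in the RefSeq table of GRCm38.p6, and keeping the transcript of highest mean RPKM for each gene gave 23109 genes. Coordinates are those of GENCODE M1 on NCBIM37 (mm9). Of 26946 transcripts with RPKM above 0 in 2 or more libraries, 26945 gave whole reads, and 99.8% of these gave a transcript length within 0.01 base of a whole number. Reads may be understated where all share a factor. The smallest signal was taken as 3 reads, which correspond to an RPKM of 0.123 to 0.246 for a transcript of 1 kb.

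Genes above 0 in at least 1 of 2 libraries were compared, and called at over 2-fold with no pseudocount. Intervals are 95% Clopper-Pearson, those of a difference between changes are from the normal approximation on the log2 scale, and both cover counting error only. No pair of libraries was tested. Matched libraries were fitted with limma 3.58.1 (R 4.3.3, trend, state, population, day, or cells as block) on log2(RPKM + 0.1), or + 1, over genes at an RPKM of 1 or more in at least 1 library, with Benjamini-Hochberg adjustment. The genes named are all 10 members, genes of the listed groups that passed 2-fold, and for *Ezh2*, *Ezh1*, and *Kdm6b* the 5 most alike. Members and lists were chosen with earlier results of these data known. *Cd68* of the leukocyte list matched no transcript. Promoter windows are from RefSeq. The alternatives were pseudocounts of 0.1 and 1, rescaling by the median ratio, the sum over transcripts, a 1.5-fold threshold, an RPKM of at least 1, and an interval that excludes 1. Simulated data were used to test the recovery of reads, the calls, and the interval coverage. Python 3.11.15, numpy 2.4.6, pandas 2.3.3, SciPy 1.17.1, and matplotlib 3.10.9 were used. The values of 1 gene from the listed Polycomb genes are not reported here.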

Additional observations from a re-analysis of the deposited data

Results flagged for a closer look

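The values here are log2 ratios that pointed in opposite directions in 2 groups under the same contrast, with both 95% counting intervals excluding 0. The difference between the groups was not tested, since each group is 1 library per condition. Most lie under 2-fold.

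From D0 to D2 the ratio was -0.25 in K36M and 0.63 in WT cells for *Ezh2*, -0.21 and 0.50 for *Eed*, -0.57 and 0.29 for *Suz12*, and -0.26 and 0.14 for *Rbbp4*. From D2 to D7 *Rbbp4* was at -0.28 in K36M and 0.11 in WT cells. With Rosi the ratio was 0.26 in K36M and -0.08 in WT cells for *Rbbp4*, 0.11 and -0.40 for *Rbbp7*, and -0.53 and 1.28 for *Jarid2*.

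The ratio of K36M to WT was -0.50 at D2 and 0.38 at D0 for *Ezh2*, and -0.19 at D7. It was -0.31 at D2 and 0.40 at D0 for *Eed*, and -0.36 at D2, -0.12 at D7, and 0.50 at D0 for *Suz12*. For *Rbbp4* it was -0.23 at D7 compared with 0.17 at D2 and 0.57 at D0. *Rbbp7* was at -0.62 at D2 and -0.42 at D7, compared with 0.14 at D0, and *Kdm6b* at -0.43 at D2 and -0.42 at D7, compared with 0.36 at D0.

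The ratio of Nsd2 KD to Ctrl was -0.066 at D2 and 0.18 at D0 for *Rbbp4*, -0.74 and 1.12 for *Jarid2*, and -0.29 and 0.45 for *Kdm6b*.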

How the results depend on the processing

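With 1 library per condition, the calls have no replicate check, and depth limits *Phf19* and *Jarid2* most. The number of calls over the members and comparisons was 5 from D0 to D2, 1 from D2 or D0 to D7, 3 for K36M to WT, 3 for Rosi to DMSO, 3 for Nsd2 KD to Ctrl, and 1 for Ctrl to WT. A threshold of 1.5-fold gave 13, 11, 5, 6, 8, and 5. A pseudocount of 1 left 4 calls from D0 to D2, without *Jarid2* in K36M cells, 2 for Rosi to DMSO, without *Jarid2*, 1 for Nsd2 KD to Ctrl, without *Jarid2* and *Phf19* at D0, and 0 for Ctrl to WT, and a pseudocount of 0.1 also left 0 for Ctrl to WT, since *Phf19* lay at the threshold. Rescaling by the median ratio and the sum over transcripts, which counts shared reads repeatedly, each gave 2 calls to D7, adding *Jarid2* in K36M cells. An RPKM of at least 1 and an interval excluding 1 changed none of these 6 counts. Rescaling changed the sign of 5 of 190 ratios, none of them over 2-fold and the largest at 0.08, and moved ratios by up to 0.21. The additive limma fits, chosen after the data were seen and giving 1 test per member, called 1 member from D0 to D2, 0 for K36M to WT, 1 for Rosi to DMSO, and 0 for Nsd2 KD to Ctrl, with a pseudocount of 0.1 or 1, and the adjusted p of *Kdm6b* from D0 to D2 was 0.0474 and 0.0498. With a pseudocount of 1 the fit of Nsd2 KD to Ctrl called 0 genes of 12416 (837 higher and 1298 lower at an unadjusted p under 0.05).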

Other observations

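*Asxl3*, which encodes a partner of the H2A deubiquitinase BAP1, was singled out after its values were seen. Its RPKM was 0.966 at D0 and 0.673 at D2 in Nsd2 KD cells and at most 0.0706 in the 12 libraries without the knockdown, with log2 ratios to Ctrl of 4.80 (3.80 to 6.03) and 6.31 (4.43 to 9.37). The Ctrl values were 0.0346 at D0 and 0.00848 at D2, so low that the size of these ratios is poorly fixed. The other 3 deubiquitinase genes, *Bap1*, *Asxl1*, and *Asxl2*, stayed within 2-fold between Nsd2 KD and Ctrl cells.

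The summed RPKM of the 15 proliferation genes was highest in Nsd2 KD cells at D2 (1157, against 884 in Ctrl cells), the library in which *Ezh2* was highest. At D0 the sums were 786 and 768, and the list was split. Of the 15 genes 8 were higher in Nsd2 KD cells, 0 of them over 2-fold, and the median log2 ratio was 0.08. *Mki67*, *Ccna2*, and *Ccnb1*, which encode a proliferation marker and mitotic cyclins, were over 2-fold lower. Over all genes above 0, 13.5% were over 2-fold higher and 18.1% lower. Of those at an RPKM of 1 or more, these shares were 6.61% and 10.8%. *Ezh2* had a log2 ratio of 0.38 at D0. Between the control populations at D0, where *Ezh2* had a log2 ratio of Ctrl to WT of 0.74, the sums were 768 and 528. There 13 of 15 proliferation genes were higher in Ctrl cells and 6 over 2-fold. Over all genes, 12.0% of those above 0 and 7.10% of those at an RPKM of 1 or more were over 2-fold higher. The part of proliferation in the *Ezh2* levels was not tested.

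The genes most like each of 3 members over the 14 libraries were taken by Pearson correlation of log2(RPKM + 1) among 8533 genes with a mean RPKM of at least 5. For *Ezh2* they were *Gm38431*, *Scrib*, *Kdm2b*, *Topbp1*, and *Tonsl* (r from 0.90 to 0.94). For *Ezh1* they were *Ddb2*, *Grina*, *R3hdm2*, *Zscan26*, and *Tbc1d20* (0.93 to 0.96), and for *Kdm6b* they were *AU040320*, *Tmed4*, *Akap8l*, *Eif1ad*, and *Copg2* (0.92 to 0.94). These are descriptions over libraries that share cells and experiments.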
